A study of Mus musculus with 24 samples.

Results

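The Hox genes are described here by cluster and by position within the cluster. Probe sets were taken where the array's annotation gave 1 symbol alone and that symbol was Hox, a cluster letter and a number, which gave 37 of the 19938 genes tested. There were 10 genes of the HoxA cluster on chromosome 6, 9 of HoxB on chromosome 11, 9 of HoxC on chromosome 15 and 9 of HoxD on chromosome 2. By number, 11 genes belonged to paralog groups 1 to 4, 10 to groups 5 to 8 and 16 to groups 9 to 13. Hoxb8 is not analysed here because its probe set was annotated to both Hoxb7 and Hoxb8. Each of the 37 genes had 1 probe set, so its signal could be compared between arrays, while levels of different genes were not set against each other.

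RNA came from embryoid bodies (EBs), which are floating aggregates in which embryonic stem cells differentiate, of the single mouse line 46C. The treated EBs received FK506 at 100 ng/ml together with cyclosporin A at 1 ug/ml from day 3 to day 8 and were collected at days 4, 6, 8 and 12. The untreated EBs were collected on the same days without the drugs, and both share the culture steps, including plating on day 7 and serum-free medium from day 8. Each of the 8 groups held 3 arrays, 1 from each of 3 independent experiments. Both drugs inhibit calcineurin, a calcium-dependent phosphatase, and at day 12 they had been absent since day 8. Both drugs were given together, so neither can be told apart from the other.

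Hox genes encode homeodomain transcription factors that give cells along the head-to-tail axis their regional identity. In each cluster they lie in the order in which they are switched on, with low-numbered genes at the 3′ end active first and furthest forward and high-numbered genes at the 5′ end active later and towards the tail. The forebrain and midbrain express none of them, the hindbrain expresses the lowest numbers, and trunk and tail mesoderm and spinal cord express the central and high numbers. Retinoic acid, Wnt and FGF signals and the Cdx factors open the clusters in sequence, and Polycomb complexes hold them silent before that.

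The clusters also hold microRNA genes, and 6 of them had a probe set of their own. Their mature sequences (RefSeq, build GRCm38.p6) are shown because 4 of the 6 genes were called higher in treated EBs at day 12, and because they fall into families that cross the clusters. These genes were taken as a set after their values had been seen, and 7.49% of all genes were called higher that day. The seed, bases 2 to 8, is in capitals.
miR-196b-5p (HoxA, chr6:52230129-52230150, minus strand): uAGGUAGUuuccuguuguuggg
miR-196a-5p (HoxC from Mir196a-2, chr15:102973365-102973386, plus strand; the same sequence from Mir196a-1 in HoxB): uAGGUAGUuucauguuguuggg
miR-10b-5p (HoxD, chr2:74726074-74726096, plus strand): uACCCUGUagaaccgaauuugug
miR-10a-5p (HoxB, chr11:96317186-96317208, plus strand): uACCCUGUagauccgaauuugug
miR-615-3p (HoxC, chr15:103014969-103014990, plus strand): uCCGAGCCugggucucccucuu
The miR-196 sequences share the seed AGGUAGU and the miR-10 sequences the seed ACCCUGU, while miR-615-3p has a seed of its own. The probe sets are annotated to the microRNA genes, so the values below are not levels of the mature strands.

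Promoters of 3 genes whose signal was higher in treated EBs at day 8 are printed because they hold one of the motifs searched for. RefSeq windows of 300 bases, from 250 before to 50 after a transcript start (GRCm38.p6), were available for 21 of the 37 genes. The first motif was TTTATG, a core bound by Cdx factors, which reads CATAAA on the other strand. The second motif was GGCGCC, a core bound by Smad factors, which reads alike on both strands. The motifs can share 1 letter at their ends. Matches on either strand are in capitals.
Hoxa7 (chr6:52218524-52218823, minus strand): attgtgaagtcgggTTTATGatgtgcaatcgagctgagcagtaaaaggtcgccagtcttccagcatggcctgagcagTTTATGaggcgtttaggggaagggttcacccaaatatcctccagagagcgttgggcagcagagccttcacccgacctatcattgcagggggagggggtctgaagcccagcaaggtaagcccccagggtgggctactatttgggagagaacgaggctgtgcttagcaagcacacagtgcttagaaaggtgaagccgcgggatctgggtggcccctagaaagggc
Hoxd4 (chr2:74721728-74722027, plus strand): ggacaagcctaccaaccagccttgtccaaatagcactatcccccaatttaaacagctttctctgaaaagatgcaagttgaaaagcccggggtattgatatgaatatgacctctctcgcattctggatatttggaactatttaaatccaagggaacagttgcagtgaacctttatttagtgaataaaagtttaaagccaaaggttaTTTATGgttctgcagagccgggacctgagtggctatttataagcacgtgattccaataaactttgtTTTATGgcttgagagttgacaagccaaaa
Hoxa10 (chr6:52234890-52235189, minus strand): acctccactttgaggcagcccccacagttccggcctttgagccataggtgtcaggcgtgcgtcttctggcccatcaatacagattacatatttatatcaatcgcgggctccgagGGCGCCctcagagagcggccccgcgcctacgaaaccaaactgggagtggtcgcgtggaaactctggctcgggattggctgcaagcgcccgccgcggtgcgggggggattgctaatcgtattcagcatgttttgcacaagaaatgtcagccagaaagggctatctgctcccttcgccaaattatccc
The TTTATG core was in the windows of 4 of the 21 genes (Hoxa7, Hoxd3, Hoxd4 and Hoxd11) and GGCGCC in those of 5 (Hoxa10, Hoxd1, Hoxd3, Hoxd11 and Hoxd13). Of all 32851 windows in the table, 11.9% held TTTATG and 11.9% held GGCGCC. Of the 11 genes with a window that were called higher in treated EBs at day 8, 2 held TTTATG and 1 held GGCGCC.

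Median signals of the 24 arrays ran from 7.80 to 7.88 log2 units, and every pair of arrays differed. Of the 37 Hox genes, 28 had a mean signal below the 40th percentile of all genes, 7.61 log2 units. The deposited values carry no call of presence, so dim genes may lie near background. The mean signal of the pluripotency list was 11.84 to 11.92 in treated and 11.76 to 11.90 in untreated EBs at day 4, and 9.18 to 9.40 in treated and 8.32 to 8.63 in untreated EBs at day 12. Below, a gene is called higher or lower where limma's adjusted p was under 0.05 over all 19938 genes.

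In untreated EBs the Hox genes first showed higher signals between day 6 and day 8, and HoxB and HoxD had the largest shares of called genes in that step. At day 6 against day 4, 0 Hox genes were called higher and 6 lower, where 21.1% of all genes were called higher and 20.9% lower, and at an unadjusted p under 0.05 the lower ones were 7 and the higher ones none. The 6 were Hoxd13, Hoxd12, Hoxc11, Hoxb9, Hoxa7 and Hoxd3, and Hoxd13, which patterns digits and the genital bud, had the largest difference, -0.69 ± 0.17 (SE, adjusted p = 0.0027). At day 8 against day 6, 22 were called higher and 0 lower, against 17.8% and 18.3% of all genes. They were 4 of 10 in HoxA, 7 of 9 in HoxB, 4 of 9 in HoxC and 7 of 9 in HoxD. By position they were 9 of 11 in groups 1 to 4, 8 of 10 in groups 5 to 8 and 5 of 16 in groups 9 to 13. At day 12 against day 8, 9 were called higher and 4 lower, against 18.8% and 19.9% of all genes. A gene can be counted in both steps.

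From day 4 to day 12, 20 Hox genes were called higher and 3 lower in untreated EBs, where 27.0% of all genes were called higher and 30.2% lower. The median difference of the 37 was 0.42 log2 units, and that of all genes was -0.06. They became 0.28 and -0.21 when each array was centred on its own median. That setting called 18 Hox genes higher and 6 lower, and 4292 of all 19938 genes higher and 10315 lower. Among low-numbered genes, Hoxa2, which patterns the second branchial arch and the hindbrain, had the smallest p. Its signal was 8.28, 8.37 and 8.63 in the 3 arrays at day 12, against 6.37, 6.28 and 6.28 at day 4, a difference of 2.12 ± 0.18 (adjusted p = 1.4e-09). Hoxb2 (1.31 ± 0.19) and Hoxd4 (1.19 ± 0.19) followed.

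Among the central genes, Hoxc8, a thoracic gene, was at 8.85, 8.69 and 8.83 at day 12, against 7.35, 7.11 and 6.84 at day 4. Hoxc6 differed by 1.91 ± 0.29 and Hoxd8 by 1.21 ± 0.18. In groups 9 to 13 the smallest p-values belonged to Hoxb9 (0.75 ± 0.10), Hoxd10 (1.08 ± 0.20) and Hoxc9 (0.86 ± 0.18). In each of these 9 genes, chosen for their small p-values, all 3 arrays of day 12 lay above those of day 4, as in 28.9% of all genes. Hoxc13, Hoxc11 and Hoxd1 were the 3 lower genes, by -0.46, -0.30 and -0.30.

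Calcineurin inhibitors were compared with no drug at each day to ask how the Hox code of these cultures differed while the drugs were present and after they were removed. At day 4, 1 day after the drugs were added, 0 Hox genes were called, where 0.00502% of all genes (1 gene) were higher and 0 were lower. No Hox gene reached an unadjusted p under 0.05 either. With the replicate number as a block 3 higher and 1 lower did, as did 1528 of all 19938 genes, although equal numbers did not all deviate together on this day. The differences ran from -0.27 for Hoxd13 to 0.34 for Hoxc9.

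At day 6 Hoxb2, which acts in hindbrain segmentation, was higher in treated EBs. It was the only Hox gene called of 37, where 1.26% of all genes were higher and 0.577% lower. Its signal was 8.66, 8.06 and 8.50 in treated EBs, against 7.79, 7.31 and 7.70 in untreated EBs. All 3 treated arrays were above all 3 untreated ones, as for 12.1% of all genes, and the difference was 0.81 ± 0.19 (adjusted p = 0.025). Hoxb1, which specifies the fourth hindbrain segment and is among the first Hox genes of the gastrulating embryo, was at 9.06, 8.91 and 9.19 in treated and 8.63, 7.72 and 8.42 in untreated EBs. Its difference of 0.80 ± 0.21 missed the threshold (adjusted p = 0.052) and passed it with the replicate number as a block (adjusted p = 0.021 for Hoxb1 and 0.0035 for Hoxb2), where 2.10% of all genes were called higher.

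The call of Hoxb2 ended with quantile normalization (adjusted p = 0.059). It also ended without treated replicate 1 (0.16) or 3 (0.11) and without untreated replicate 2 (0.22) or 3 (0.055). The remaining 35 genes differed by -0.19 for Hoxd11 to 0.38 for Hoxa13. The median of the 37 was 0.06, against 0.00 for all genes. Markers of lateral plate mesoderm moved with this result: 5 of 7 were called higher, and the list's mean signal was 9.35 to 10.32 in treated and 8.16 to 8.66 in untreated EBs. In a bulk sample, fewer cells of a type and less RNA per cell cannot be told apart, and the part of these markers in the result was not tested.

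**Figure D1:**
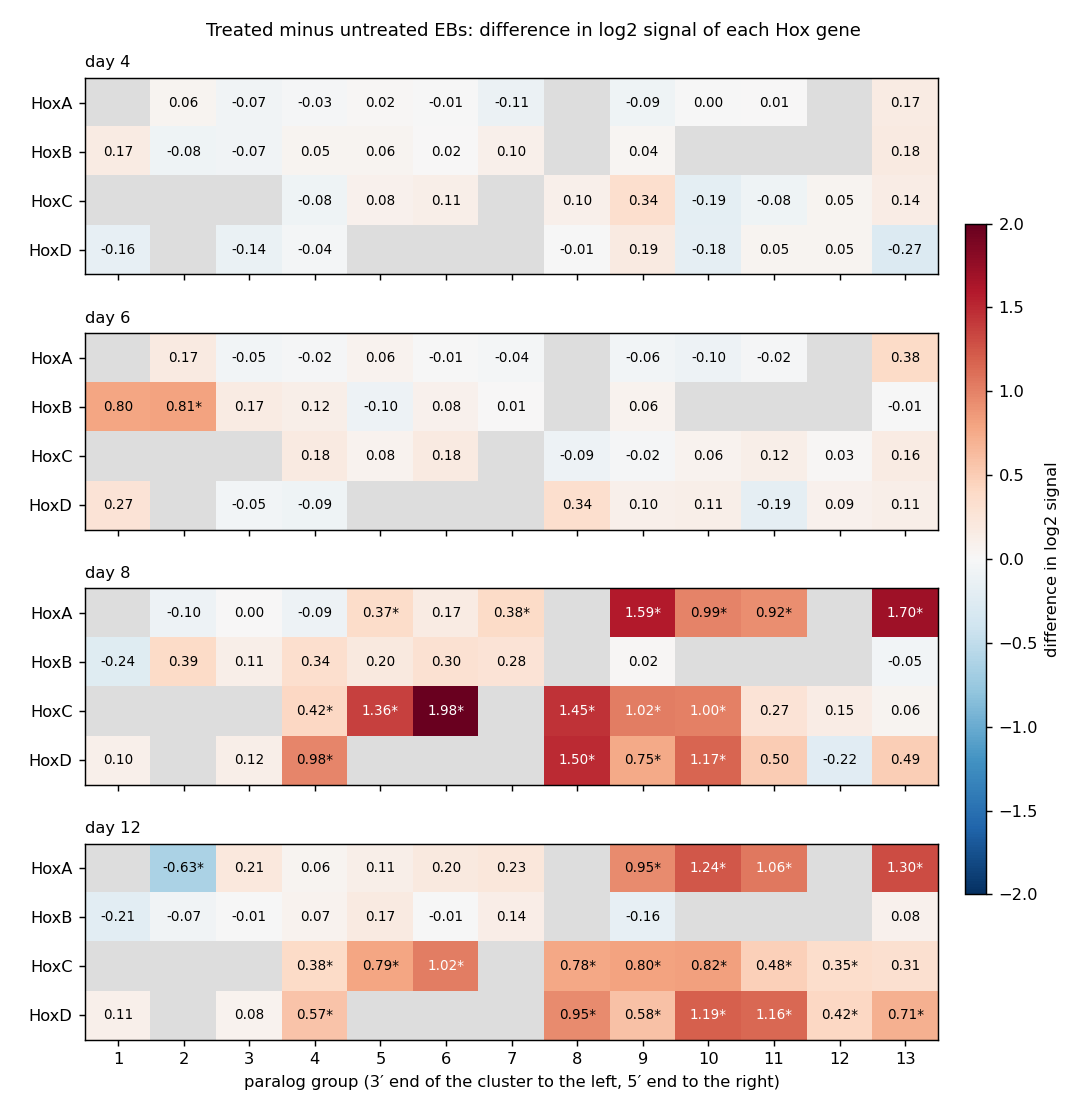
Each square is 1 Hox gene, placed by cluster (vertical) and paralog group (horizontal), and the number in it is the treated minus untreated difference in log2 signal at days 4, 6, 8 and 12. Asterisks mark an adjusted p under 0.05 and grey squares have no gene here. Hoxb2 alone is marked at day 6, 16 genes of HoxA, HoxC and HoxD at day 8, and 19 higher genes and Hoxa2, which is lower, at day 12.

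At day 8, the last day of drug, many of the central and posterior genes of HoxA, HoxC and HoxD were called higher in treated EBs, and none of HoxB. Of the 37 Hox genes 16 were called higher and 0 lower, where 4.86% of all genes were higher and 4.08% lower. The median difference was 0.37 for the Hox genes and -0.04 for all genes. The called genes were 6 of 10 in HoxA, 6 of 9 in HoxC and 4 of 9 in HoxD, and 0 of 9 in HoxB. By position they were 2 of 11 in groups 1 to 4, 6 of 10 in groups 5 to 8 and 8 of 16 in groups 9 to 13. In groups 5 to 13 of HoxA, HoxC and HoxD, 14 of 21 were called, with a median of 0.92 over the 21. Hoxa6, Hoxc11, Hoxc12, Hoxc13, Hoxd11, Hoxd12 and Hoxd13 were not. This set leaves out HoxB and groups 1 to 4, where 0 of 9 and 2 of 11 were called, so its higher share follows from the choice.

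Hoxd8, a trunk gene (probe set 10472965), had the smallest p. Its signal was 8.88, 8.31 and 9.40 in treated EBs, against 7.47, 7.01 and 7.63 in untreated EBs, a difference of 1.50 ± 0.18 (adjusted p = 1.1e-04). Hoxc6 (probe set 10427293), expressed from the forelimb level backwards, had the largest difference, 1.98 ± 0.29 or 3.95-fold. It was at 9.08, 7.84 and 9.10 in treated EBs and at 7.01, 6.21 and 6.86 in untreated EBs. The arrays of the groups did not overlap in either gene, and replicate 2 was the lowest array of both groups.

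Neighbouring HoxC genes moved the same way. Hoxc8 was at 9.98, 9.02 and 9.70 in treated and 8.44, 7.57 and 8.34 in untreated EBs (1.45 ± 0.21). Hoxc5 differed by 1.36 ± 0.27. Both had groups that did not overlap.

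Among the posterior genes, Hoxa9, which acts in the trunk and in blood progenitors, was at 9.15, 8.05 and 9.32 in treated EBs, against 7.42, 6.94 and 7.39 in untreated EBs. The difference was 1.59 ± 0.22 (adjusted p = 3.5e-04). Hoxa13 (probe set 10544805), which acts in the distal limb, the hindgut and the allantois, was at 9.71, 8.24 and 9.28 in treated and 7.67, 6.99 and 7.49 in untreated EBs. Its difference of 1.70 ± 0.23 was the largest of HoxA, and the gene lies at the 5′ end of the cluster. Again treated replicate 2 was the lowest treated array, but above all 3 untreated ones.

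Hoxd10, Hoxc9 and Hoxd9 differed by 1.17 ± 0.20, 1.02 ± 0.18 and 0.75 ± 0.13. Hoxd4, the only low-numbered gene among the 10 smallest p-values, was at 8.38, 7.83 and 8.57 in treated and 7.47, 6.80 and 7.57 in untreated EBs (0.98 ± 0.19). The other 6 called genes, Hoxc10, Hoxa10, Hoxa11, Hoxc4, Hoxa7 and Hoxa5, differed by 0.37 to 1.00. In 16 of the 37 genes all 3 treated arrays were above the untreated ones, as in 9.37% of all genes. The called Hoxc4 was not among them, while Hoxb7, which was not called, was.

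The HoxB genes differed by -0.24 for Hoxb1 to 0.39 for Hoxb2 at day 8. Hoxb4 was at 7.67, 7.19 and 7.56 in treated and 7.37, 6.87 and 7.17 in untreated EBs, so that the groups overlapped, and its difference was 0.34 ± 0.12 (adjusted p = 0.085). The groups of Hoxb7 did not overlap, by a narrow margin. It was at 7.671, 7.372 and 7.537 in treated and 7.367, 7.061 and 7.320 in untreated EBs. Equal numbers were read as pairs, and differences were also taken within pairs. In 6 of 9 HoxB genes all 3 pairs were positive, against 7 of 10 in HoxA, 7 of 9 in HoxC and 6 of 9 in HoxD. The same count was not made over all genes, so no general share stands beside it. With the replicate number as a block Hoxb4, Hoxb6 and Hoxb7 were called higher at 0.34, 0.30 and 0.28, where 6.95% of all genes were. With quantile normalization, array weights or without treated replicate 2, 3 HoxB genes were called, and without untreated replicate 1, 1 was. Array weights called 7 of 9 HoxD genes. Of all 19938 genes, array weights called 2140 higher and quantile normalization 1113. Without treated replicate 2 it was 1769 of all genes, and without untreated replicate 1 it was 980. Whether HoxB differs from the other clusters in its response was not tested.

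The number of calls at day 8 rests on the spread shared over all 24 arrays. A fit of the 6 day 8 arrays alone called 0 Hox genes and 0 of all genes, while 19 Hox genes were higher and 1 lower at an unadjusted p under 0.05. Without treated replicate 1 the count was 10, and without treated replicate 2 it was 22, where 201 and 1769 of all 19938 genes were called higher. HoxA held 2 of 10 without treated replicate 1 or 3, and 3 of 10 without untreated replicate 2. Of all genes, 386 were called higher without treated replicate 3 and 245 without untreated replicate 2.

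Other markers moved with the day 8 result. Of the mesenchyme list 5 of 6 were called higher, with a mean signal of 8.62 to 10.57 in treated and 7.64 to 8.66 in untreated EBs, and of lateral plate mesoderm 3 of 7, at 10.93 to 11.44 in treated and 9.85 to 10.76 in untreated EBs. Of the forebrain and midbrain list 6 of 7 were called lower, at 7.33 to 7.85 in treated and 8.18 to 8.39 in untreated EBs, and of the neural progenitor list 4 of 8. The pluripotency list had 2 of 8 called lower, at 9.75, 11.10 and 10.31 in treated and 10.87, 11.08 and 10.80 in untreated EBs, so that treated replicate 2 lay at the untreated level. Replicate 2 had the lowest mesenchyme signal and the lowest mean Hox signal of its group in both conditions, 7.41 in treated and 6.96 in untreated EBs, against 7.85 to 7.86 in the other treated and 7.23 to 7.29 in the other untreated arrays. The part of these markers in the Hox result was not tested.

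**Figure D2:**
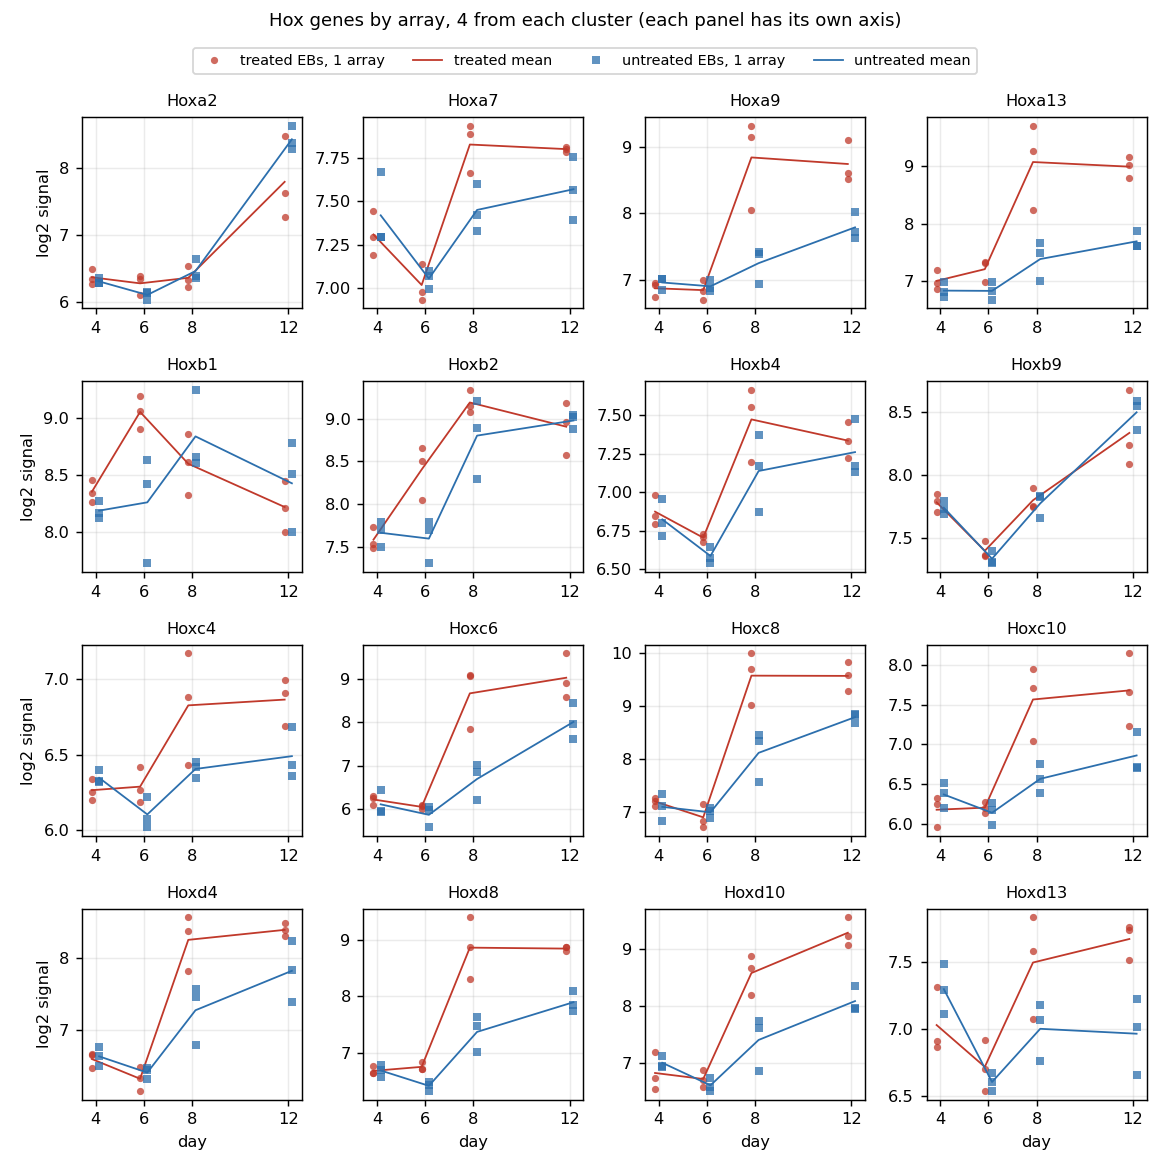
Log2 signal of 4 genes of each cluster at days 4, 6, 8 and 12, with 1 point per array (treated left of untreated) and lines through the means of 3 arrays. Treated and untreated arrays separate in Hoxa9, Hoxa13, Hoxc6, Hoxc8, Hoxc10, Hoxd8 and Hoxd10 at days 8 and 12, and overlap in Hoxb4 and Hoxb9.

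At day 12, after the drugs had been removed, the genes called higher in EBs that had been treated again lay in HoxA, HoxC and HoxD. Of the 37 genes 19 were called higher and 1 lower, where 7.49% of all genes were higher and 10.4% lower. They were 4 of 10 in HoxA, 8 of 9 in HoxC and 7 of 9 in HoxD, and 0 of 9 in HoxB. By position 2 of 11 were called higher in groups 1 to 4, 4 of 10 in groups 5 to 8 and 13 of 16 in groups 9 to 13. The median was 0.35 for the Hox genes and 0.02 for all genes. In 22 of the 37 genes no treated array was as low as an untreated one, as in 15.4% of all genes.

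Hoxd10, which patterns the hindlimb and lumbar spinal cord, had the smallest p. Its signal was 9.55, 9.07 and 9.22 in treated EBs, against 8.34, 7.95 and 7.97 in untreated EBs, a difference of 1.19 ± 0.20 (adjusted p = 2.1e-04). Hoxd11, which acts in the forearm and the kidney, was at 9.71, 8.84 and 9.20 in treated and 8.47, 7.93 and 7.89 in untreated EBs (1.16 ± 0.21, adjusted p = 4.7e-04). The probe sets of these 2 genes lie in transcripts whose annotated spans overlap, so their reads may not be separate.

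In HoxA the 4 genes of groups 9 to 13 were higher. Hoxa10, which acts in the lumbar region and the uterus, was at 9.26, 8.06 and 8.61 in treated and 7.63, 7.29 and 7.30 in untreated EBs (1.24 ± 0.23). Hoxa13 was at 9.03, 8.79 and 9.17 in treated and 7.87, 7.61 and 7.60 in untreated EBs (1.30 ± 0.23, the largest difference of the day). Hoxa11 differed by 1.06 ± 0.21 and Hoxa9 by 0.95 ± 0.22, and none of the 4 had overlapping groups.

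Hoxd8 was at 8.87, 8.87 and 8.80 in treated and 8.09, 7.85 and 7.75 in untreated EBs (0.95 ± 0.18). Hoxc9, Hoxd9 and Hoxc11 differed by 0.80 ± 0.18, 0.58 ± 0.13 and 0.48 ± 0.11. The other 9 called genes (Hoxc4, Hoxc5, Hoxc6, Hoxc8, Hoxc10, Hoxc12, Hoxd4, Hoxd12 and Hoxd13) differed by 0.35 to 1.02. Without treated replicate 1 the count of higher genes was 12, and HoxC then held 2 of 9. Without untreated replicate 2 HoxC held 3 of 9, and without treated replicate 3 it held 5 of 9. Of all 19938 genes, these 3 fits called 953, 1088 and 919 higher in that order, against 1493 in the main fit. The lower HoxC counts are therefore not by themselves results about HoxC.

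Hoxa2 was the only gene called lower. Its signal was 7.63, 8.48 and 7.27 in treated EBs, against 8.28, 8.37 and 8.63 in untreated EBs. The groups overlapped, because treated replicate 2 was above 2 of the untreated arrays, and the difference was -0.63 ± 0.18 (adjusted p = 0.018). The call ended in a fit of the day 12 arrays alone (adjusted p = 0.15) and when treated replicate 1 or 3 or untreated replicate 3 was left out. Hoxb2, its paralog in HoxB, was at 8.96, 9.18 and 8.57 in treated and 9.01, 8.88 and 9.04 in untreated EBs.

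In HoxB the differences at day 12 ran from -0.21 for Hoxb1 to 0.17 for Hoxb5, and no HoxB gene reached an unadjusted p under 0.05. Among the alternative settings, array weights and the fit without treated replicate 2 each called 1 HoxB gene lower, and 2643 and 2533 of all 19938 genes. The other settings called no HoxB gene at day 12 in either direction.

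Several marker lists also differed at day 12. Of the neuron list 6 of 6 were called lower, with a mean signal of 8.64 to 9.07 in treated and 9.67 to 10.21 in untreated EBs. The hindbrain and spinal cord list, whose tissue expresses Hox genes, had 3 of 6 called lower, at 8.06 to 8.42 in treated and 8.56 to 8.67 in untreated EBs. Of lateral plate mesoderm 3 of 7 and of mesenchyme 3 of 6 were called higher, the second at 11.74 to 12.16 in treated and 10.76 to 11.32 in untreated EBs. Of the presomitic and paraxial mesoderm list 0 of 6 were called higher and 1 lower, at 7.87 to 8.05 in treated and 8.01 to 8.10 in untreated EBs. Of the pluripotency list 6 of 8 were called higher. The part of these markers in the Hox result was not tested.

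Days 8 and 12 share no array, and their calls were set side by side. The calls are still not independent, because both days used the same spread per gene, taken over all arrays. Of the genes called higher, 14 were called on both days, 87.5% of the day 8 calls and 73.7% of the day 12 calls. Neither this overlap nor that with the replicate block was counted over all genes, so whether it exceeds the general share is not known. Hoxa5 and Hoxa7 were called at day 8 alone, and Hoxc11, Hoxc12, Hoxd11, Hoxd12 and Hoxd13 at day 12 alone. With the replicate number as a block, Hoxc11, Hoxd11 and Hoxd13 were called at day 8 too (adjusted p = 0.047, 0.0080 and 0.0014). Then 17 genes were called on both days, Hoxc12, Hoxc13 and Hoxd12 at day 12 alone, and Hoxa5, Hoxa7, Hoxb4, Hoxb6 and Hoxb7 at day 8 alone. Across the 37 genes, which are not independent replicates, the differences of the 2 days correlated at r = 0.81, and those of days 6 and 8 at r = -0.07. In all, 23 genes were called on at least 1 day, a count that was not made over all genes. The other 14 were Hoxa3, Hoxa4, Hoxa6, Hoxb1, Hoxb3, Hoxb4, Hoxb5, Hoxb6, Hoxb7, Hoxb9, Hoxb13, Hoxc13, Hoxd1 and Hoxd3, with differences between -0.24 and 0.80 over the 4 days.

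The change of the treatment difference between days was tested directly. From day 6 to day 8 it became larger in Hoxa9 by 1.65 ± 0.31, in Hoxc8 by 1.54 ± 0.30 and in Hoxd8 by 1.16 ± 0.25 (adjusted p = 0.021, 0.022 and 0.040), 3 of 37 where 0.221% of all genes passed in that direction and 0.181% in the other. With the replicate number as a block 14 passed, and Hoxb1 passed in the other direction (-1.04 ± 0.25, adjusted p = 0.036), where 1.88% and 1.37% of all genes did. Without treated replicate 2 of day 8 the count was also 14, where 594 of all 19938 genes passed. It was 0 when treated replicate 1 or 3 or untreated replicate 2 or 3 of day 8, or treated replicate 3 or untreated replicate 2 of day 6, was left out.

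From day 8 to day 12 only Hoxd12, a gene of the digit-forming end of HoxD, passed. Its difference was -0.22 at day 8, with 6.49, 6.35 and 6.56 in treated and 6.82, 6.71 and 6.54 in untreated EBs. At day 12 it was 0.42, with 6.83, 6.62 and 6.93 in treated and 6.51, 6.16 and 6.44 in untreated EBs. The change was 0.64 ± 0.14 (adjusted p = 0.011), and 2.63% of all genes passed in that direction and 2.57% in the other. With the replicate number as a block Hoxd11 passed too (0.65), and Hoxc6 (-0.96), Hoxc8 (-0.68), Hoxa9 (-0.64), Hoxc5 (-0.57) and Hoxd8 (-0.54) had smaller differences at day 12 than at day 8, where 5.13% and 4.75% of all genes passed in the 2 directions. Without treated replicate 2 of day 8, 6 Hox genes passed in that second direction, where 941 of all 19938 genes did. From day 4 to day 6, 0 passed, where 0.0752% and 0.0201% of all genes did, and 3 Hox genes had an unadjusted p under 0.05. With the block Hoxb2 passed (0.89, adjusted p = 0.0495), as did 0.587% of all genes. That block also pairs the day 4 arrays, whose equal numbers did not all deviate together.

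The size of the difference was also read along each cluster, as a description, and the clusters were not tested against each other. In HoxA the differences at day 8 were -0.10, 0.00 and -0.09 for Hoxa2, Hoxa3 and Hoxa4, then 0.37, 0.17 and 0.38 for Hoxa5, Hoxa6 and Hoxa7, and then 1.59, 0.99, 0.92 and 1.70 for Hoxa9, Hoxa10, Hoxa11 and Hoxa13. The step lay between Hoxa7 and Hoxa9. Across the 10 HoxA genes the paralog number correlated with the difference at r = 0.90 at day 8 and 0.94 at day 12, as a description without a test, since neighbouring genes of 1 cluster in the same arrays are not independent.

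In HoxC the differences at day 8 were greatest in the middle. They were 0.42 for Hoxc4, 1.36 for Hoxc5, 1.98 for Hoxc6 and 1.45 for Hoxc8, and then 1.02, 1.00, 0.27, 0.15 and 0.06 for Hoxc9, Hoxc10, Hoxc11, Hoxc12 and Hoxc13. All HoxC genes but Hoxc8 had mean signals below the 40th percentile, with Hoxc11, Hoxc12 and Hoxc13 at 5.90, 6.39 and 6.79. The correlation with paralog number was -0.60 over 9 genes, and -0.44 at day 12. In HoxD Hoxd4, Hoxd8, Hoxd9 and Hoxd10 had 0.98, 1.50, 0.75 and 1.17, while Hoxd1 and Hoxd3 at one end had 0.10 and 0.12 and Hoxd12 at the other -0.22, a correlation of 0.08. At day 12 Hoxd11, Hoxd12 and Hoxd13 had 1.16, 0.42 and 0.71, and the correlation was 0.64. In HoxB it was -0.16 and 0.32 on the 2 days, with differences of at most 0.39.

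Values were also read across the paralogs of 1 group, without a test between them. In group 9 the differences at day 8 were 1.59 for Hoxa9, 0.02 for Hoxb9, 1.02 for Hoxc9 and 0.75 for Hoxd9, and at day 12 they were 0.95, -0.16, 0.80 and 0.58. Hoxb9 was at 8.09, 8.68 and 8.24 in treated and 8.54, 8.36 and 8.59 in untreated EBs at day 12, against 7.71 to 7.85 in treated and 7.69 to 7.80 in untreated EBs at day 4. In group 4, Hoxa4, Hoxb4, Hoxc4 and Hoxd4 had -0.09, 0.34, 0.42 and 0.98 at day 8. In group 13, Hoxa13 had 1.70 and Hoxb13, Hoxc13 and Hoxd13 had -0.05, 0.06 and 0.49.

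In treated EBs from day 4 to day 12, 28 Hox genes were called higher and 2 lower, where 24.6% of all genes were called higher and 30.4% lower. Every one of the 10 HoxA genes was higher, as were 4 of 9 in HoxB, 7 of 9 in HoxC and 7 of 9 in HoxD, and the lower ones were Hoxb13 and Hoxc13. With the replicate number as a block 1 was lower, where 30.9% of all genes were. The largest differences were those of Hoxc6 (2.82 ± 0.29), Hoxd10 (2.45 ± 0.20), Hoxc8 (2.36 ± 0.21) and Hoxd8 (2.17 ± 0.18). Hoxd10 was at 9.55, 9.07 and 9.22 at day 12, against 6.55, 6.75 and 7.20 at day 4.

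**Figure D3:**
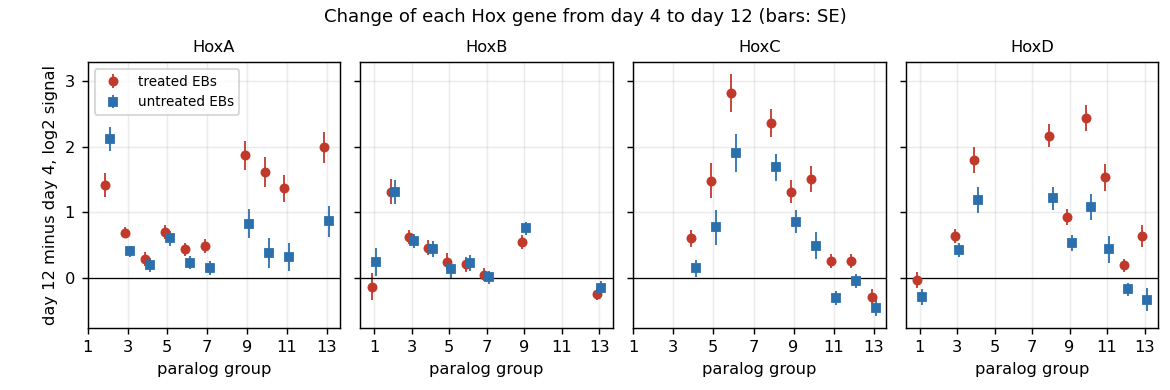
Difference in log2 signal between day 12 and day 4 for each Hox gene by paralog group, with 1 panel per cluster, treated EBs as circles (left) and untreated EBs as squares (right), and bars of 1 SE. The treated values of Hoxa9, Hoxa10, Hoxa11 and Hoxa13 and of all HoxC and HoxD genes stand above the untreated ones, by little in some. In HoxB the symbols of most genes lie close together, but Hoxb1 was lower at day 12 than at day 4 in treated and higher in untreated EBs.

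The level that treated EBs had at day 8 was set beside the level that untreated EBs had at day 12. In 29 of the 37 genes the treated mean at day 8 was above the untreated mean at day 12, as in 54.3% of all genes. In 10 of the 37 all 3 arrays were above, as in 21.3% of all genes, so that the second count is near the general share. These were 9 of 9 genes in HoxC, 8 of 9 in HoxD, 7 of 9 in HoxB and 5 of 10 in HoxA for the means. For Hoxa9 these were 9.15, 8.05 and 9.32 in treated EBs at day 8, against 8.03, 7.62 and 7.72 in untreated EBs at day 12. Hoxa2 ran the other way, at 6.33, 6.54 and 6.23 in treated EBs at day 8 and 8.28, 8.37 and 8.63 in untreated EBs at day 12.

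Genes that act before or beside the Hox genes were counted next, and their counts can be read against all genes. Of all genes 1.26% were called higher and 0.577% lower at day 6, then 4.86% and 4.08% at day 8, and 7.49% and 10.4% at day 12. Of 16 upstream regulators, 1 was called higher and 0 lower at day 6, 2 and 2 at day 8, and 5 and 2 at day 12. Cdx2, the caudal homeobox factor that opens the central and posterior part of the clusters, was at 9.05, 8.52 and 9.23 in treated and 8.35, 7.73 and 7.92 in untreated EBs at day 6 (0.94 ± 0.21, adjusted p = 0.018). At day 8 Cdx2 was at 10.46, 10.07 and 10.40 in treated and 9.61, 8.85 and 9.80 in untreated EBs (0.89 ± 0.21, adjusted p = 0.011). No treated array of Cdx2 overlapped the untreated ones on either day. Its difference at day 12, named after the value was seen, was 0.82 ± 0.21 (adjusted p = 0.0078). The call of day 6 ended without any 1 of 4 arrays (adjusted p up to 0.16). That of day 8 ended without any 1 of 3 arrays (up to 0.11) and in the fit of the day 8 arrays alone (0.15). That of day 12 held under the 14 alternatives that refitted it (up to 0.044), and its size is below the 2-fold minimum.

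Retinoic acid genes held the 4 smallest p-values of the list at day 12. Rarg (0.67 ± 0.10), Rarb (1.19 ± 0.26) and Rara (0.43 ± 0.10), the 3 retinoic acid receptors, and Aldh1a2 (1.03 ± 0.17), which makes the ligand, were higher in treated EBs, Rarb with overlapping arrays. Rarg was also higher at day 8 (0.37 ± 0.10). Gbx2, a factor of the anterior hindbrain, and Cyp26c1, which degrades retinoic acid, were lower at day 8 by -0.54 ± 0.13 and -0.47 ± 0.13.

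Of 8 cofactors that bind DNA with Hox proteins, 2 were called higher at day 6, 1 higher and 1 lower at day 8 and 1 higher and 1 lower at day 12. Meis2, a cofactor of anterior and central Hox proteins, was at 9.44, 9.43 and 9.68 in treated and 8.75, 8.29 and 8.81 in untreated EBs at day 6 (0.90 ± 0.22, adjusted p = 0.033), and it differed by 0.80 ± 0.22 at day 8. Its day 6 call ended with quantile normalization, with the trended robust prior and without any 1 of the 6 arrays (adjusted p up to 0.26), and its day 8 call without any 1 of 3 arrays (up to 0.23). Pknox2 was higher at day 6 (0.61 ± 0.14), Pbx3 at day 12 (0.33 ± 0.08), and Pbx4 lower at days 8 (-0.28 ± 0.08) and 12 (-0.26 ± 0.08).

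Of 19 chromatin regulators, 1 was called lower at day 6, 1 at day 8 and 4 at day 12, and none was called higher on these days. The counts at days 6 and 8 are of 1 gene each, and at day 8 the list's share is near that of all genes. Phc1, a subunit of Polycomb complex PRC1, was lower at days 6 (-0.47 ± 0.12) and 8 (-0.49 ± 0.12). Ring1, Bmi1, Ezh2 and Eed, all Polycomb subunits, were lower at day 12 by -0.42, -0.30, -0.27 and -0.27. Pluripotent and neural markers also differed between the groups at day 12, as given above, and their part in these differences was not tested.

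The last list was of 22 other transcripts and genes in or beside the clusters, of which 1 was called higher at day 6, 2 at day 8, and 6 higher and 2 lower at day 12. Evx1, a homeobox gene at the 5′ end of HoxA that is active in the primitive streak, was at 9.03, 9.14 and 8.78 in treated and 8.56, 8.09 and 8.50 in untreated EBs at day 6 (0.60 ± 0.12, adjusted p = 0.0074). It was not called at day 8, when the groups overlapped at 8.25, 8.47 and 8.48 in treated and 8.41, 8.40 and 8.58 in untreated EBs. Mtx2 (0.27 ± 0.07) and Lnpk (0.33 ± 0.10), both beside HoxD, were higher at day 8, and Lnpk was lower at day 12 (-0.34 ± 0.10). Calcoco1, beside HoxC, was higher at day 12 (0.30 ± 0.07).

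Of the 6 microRNA genes of the clusters, taken as a set after their values had been seen, 4 were called higher at day 12, where 7.49% of all genes were. Since the values had been seen, the count is not a test of the set. Mir196b in HoxA was at 7.24, 6.93 and 6.99 in treated and 6.75, 6.40 and 6.66 in untreated EBs (0.45 ± 0.11, adjusted p = 0.0053), with no overlap. Mir615 and Mir196a-2 in HoxC differed by 0.39 ± 0.11 and 0.39 ± 0.12, also without overlap. Mir10b in HoxD was at 5.21, 5.63 and 4.72 in treated and 4.49, 4.86 and 4.66 in untreated EBs (0.51 ± 0.15, adjusted p = 0.022), and 1 treated array lay among the untreated ones.

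The 2 microRNA genes of HoxB, which give the same seeds as their partners in the sequences printed above, were not called, and whether they differ from the other 4 was not tested. Mir10a was at 4.37, 4.34 and 4.28 in treated and 4.22, 4.23 and 4.22 in untreated EBs, and Mir196a-1 at 5.26, 5.26 and 5.40 in treated and 5.21, 5.06 and 5.18 in untreated EBs. The signals of 5 of the 6 were below the 40th percentile of all genes. The groups of Mir10a and Mir196a-1 did not overlap on this day either. The calls of Mir10b, Mir615 and Mir196a-2 each ended when single arrays were left out (adjusted p up to 0.14, 0.0996 and 0.14), and that of Mir196b held under the 13 alternatives that refitted it (up to 0.048), with a size below the 2-fold minimum.

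**Figure D4:**
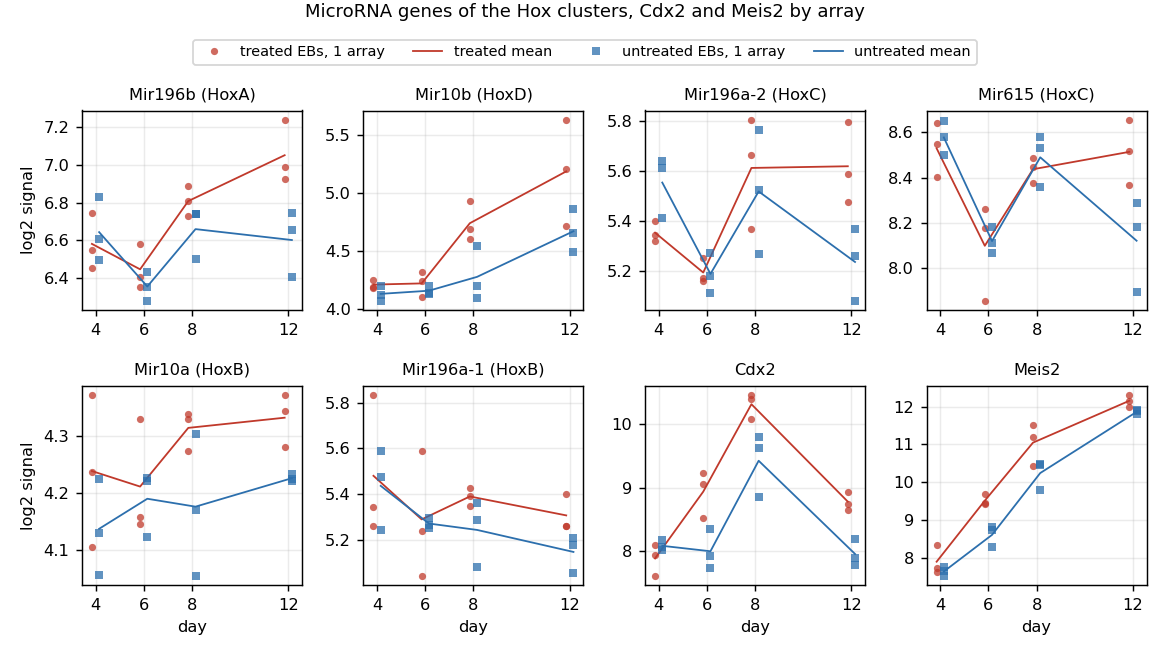
Log2 signal per array of the 6 cluster microRNA genes, Cdx2 and Meis2 at days 4, 6, 8 and 12, with treated left of untreated and lines through the means of 3 arrays. At day 12 the treated means of Mir196b, Mir10b, Mir196a-2 and Mir615 stand 0.39 to 0.51 above the untreated ones, and Cdx2 is higher in treated EBs at days 6, 8 and 12.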

How the data were processed

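The authors deposited log2 values for 35556 probe sets, made with RMA in Affymetrix Expression Console per the submitters' processing notes. The software version and the genome build are stated in none of the sources used here, and the log2 scale was read from the values. Of the probe sets, 21789 had 1 symbol in the platform annotation, 1621 several and 12146 none or no entry. For the 999 genes with several probe sets the one with the highest mean was used, leaving 19938 genes. The members and gene lists were chosen with earlier results of these data known. Groups came from the labels.

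All 24 arrays were fitted with limma 3.58.1 (R 4.3.3), using lmFit with 1 mean per group and eBayes, and p-values were adjusted per contrast by Benjamini-Hochberg, with a threshold of 0.05. The fit was tested on simulated data first. Every called Hox gene could be named, and where over 10 were called in a treatment contrast the 10 smallest p-values got a test. For untreated day 12 against day 4 the 3 smallest p-values per position class were named, and of each other list up to 4 per contrast. Same-numbered treated and untreated arrays deviated together on 3 of the days, with correlations over 0.1 for each number. They were 0.30, 0.14 and 0.21 at day 6, then 0.48, 0.55 and 0.11 at day 8, and finally 0.12, 0.34 and 0.25 at day 12. Treated replicate 3 deviated slightly more with untreated replicate 1 than with 3 at day 8 (0.13) and day 12 (0.26). Day 4 gave -0.01, 0.19 and -0.05, so its differences were not read within pairs, but the block was fitted there too. For comparisons of 2 days under 1 treatment the block was the replicate number across all days, and that pairing was not checked. The alternatives tried were dropping genes under the 40th percentile of mean signal, quantile normalization, median centring, averaging all probe sets per gene, a trended robust prior, array weights, the replicate block, fitting the compared groups alone, leaving out each array and a 2-fold minimum. Counts per cluster and per other list under these alternatives were chosen after seeing the data. Figures were drawn with matplotlib 3.10.9 (Python 3.11.15, pandas 2.3.3, numpy 2.4.6).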

Additional observations from a re-analysis of the deposited data

Results flagged for a closer look

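The treatment difference of 4 Hox genes changed between neighbouring days by limma's test of the change itself. Hoxa9 (1.65), Hoxc8 (1.54) and Hoxd8 (1.16) had a larger treated minus untreated difference at day 8 than at day 6. Hoxd12 had a larger one at day 12 than at day 8 (0.64), where 2.63% of all genes passed, so 1 of 37 is near the general share. Its mean signal of 6.48 was below the 40th percentile, and the fit of the compared groups alone did not call it. The first 3 calls ended in several of the fits that left out 1 array.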

How the results depend on the processing

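None of the 247 single-gene results changed direction under any alternative, and of their 3362 alternative values 2879 kept the call and 483 ended it. Direction could not change under the replicate block, the trended robust prior, the compared groups alone, the minimum fold or the filter on mean signal. These settings leave the difference itself as it was. Averaging probe sets left the Hox signals unchanged, since no Hox gene had several. The lack of reversals therefore tells only about the other alternatives, and the kept calls include values from all of them. The array counts limit all calls, low signals limit those of the dim genes, and the cause of each shift below was not tested beyond what its construction shows. Counts over all genes also moved under the alternatives, so the Hox counts below are not by themselves results about Hox genes.

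The 40th percentile filter left 9 Hox genes, and called 2 higher at day 6, 3 at day 8 and 4 higher and 0 lower at day 12 in treated against untreated EBs. In untreated EBs it called 1 lower at day 6 against day 4, 7 higher at day 8 against day 6, 2 higher and 1 lower at day 12 against day 8, and 6 higher and 0 lower at day 12 against day 4. In treated EBs it called 8 higher and 0 lower at day 12 against day 4. Of changes in the treatment difference it called 1 between days 6 and 8 and 0 between days 8 and 12. The 2-fold minimum left 0, 9 and 6 higher and 0 lower at days 6, 8 and 12. In untreated EBs it left 0 lower, then 2 higher, then 2 higher and 0 lower over the 3 steps, and 7 higher and 0 lower at day 12 against day 4. In treated EBs it left 15 higher and 0 lower, and 0 changes between days 8 and 12.

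Quantile normalization called 0 at day 6, 14 higher at untreated day 8 against day 6, 1 lower at untreated day 12 against day 4 and 5 changes from day 6 to day 8. Median centring called 2 at day 6, 13 lower at untreated day 6 against day 4, 6 lower at untreated day 12 against day 4 and 5 changes from day 6 to day 8. Array weights called 2 at day 6, 2 lower at day 12, 10 lower at untreated day 6 against day 4 and 0 lower at treated day 12 against day 4. At untreated day 6 against day 4 they called 6109 of all genes lower. For changes in the treatment difference they called 1 from day 4 to day 6, 15 larger and 1 smaller between days 6 and 8, and 8 smaller between days 8 and 12. The fit of the compared groups alone called 2 at day 6, 0 at day 8, 0 lower at day 12, 14 lower at untreated day 6 against day 4, 0 lower at treated day 12 against day 4, and 0 changes between days 6 and 8 or between days 8 and 12. At untreated day 6 against day 4 that fit called 4676 of all genes lower.

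With the replicate number as a block the counts were 2 at day 6, 1 lower at treated day 12 against day 4, 1 change from day 4 to day 6, 14 larger and 1 smaller between days 6 and 8, and 2 larger and 5 smaller between days 8 and 12. The block moved no other count by more than 1.5 times.

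Leaving out 1 array at a time gave 0 to 2 higher at day 6, 10 to 22 at day 8, and 12 to 21 higher and 0 to 2 lower at day 12. In untreated EBs it gave 14 to 24 higher at day 8 against day 6 (14 without untreated replicate 1 of day 8), 5 to 10 higher (5 without untreated replicate 2 of day 8) and 1 to 5 lower at day 12 against day 8 (1 without untreated replicate 2 of day 12, 2 without untreated replicate 1 of day 8), and 1 to 4 lower at day 12 against day 4 (1 without untreated replicate 1 of day 4 or 2 of day 12). In treated EBs it gave 0 to 2 lower at day 12 against day 4 (0 without treated replicate 1 of day 4 or 1 or 2 of day 12, and 1 without treated replicate 3 of day 12). Changes between days 6 and 8 numbered 0 to 14 larger and 0 to 1 smaller, and those between days 8 and 12 numbered 0 to 6 smaller. Over all 19938 genes, treated against untreated, these fits called 79 to 246 higher at day 6 and 201 to 1769 at day 8. At day 12 they called 919 to 1791 of all genes higher and 1240 to 2533 lower.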
